A study of Mus musculus with 35 samples.

Results

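The genes described here are those of interleukin-11 (IL-11) and interleukin-6 (IL-6) family signaling: the ligands *Il11*, *Il6* and *Lif*, the receptor subunits *Il11ra1*, *Il6ra*, *Il6st*, *Lifr* and *Osmr*, and the feedback inhibitor *Socs3*. They were chosen by gene symbol, and each of the 9 symbols matched 1 row among the 53465 genes of the count table. RNA sequencing covered 35 libraries of mKate2+ tumor cells sorted from KC-shSmad4 tumors, a mouse model of pancreatic ductal adenocarcinoma (PDAC) that carries an shRNA against *Smad4* switched on by doxycycline (Dox). The cells came from lines derived from primary tumors of the model and grew in athymic nude mice, which lack T cells, after injection into the pancreas, into the spleen to seed the liver, or into the tail vein to seed the lungs. All hosts received Dox. By the study's design it was kept on for the Smad4 off label and withdrawn at 4 (pancreas), 5 (liver) or 6 (lungs) weeks for the Smad4 on label. Cells were collected at day 7 or day 14. At day 7 there were 3 pancreas, 2 liver and 4 lung libraries labelled off, beside 2, 3 and 2 labelled on. At day 14 there were 2 pancreas, 3 liver and 4 lung libraries labelled off, beside 3, 3 and 4 labelled on. The labels do not say which tumor-derived line each library came from, and nothing in them ties a mouse number to a shared batch, so p-values measure the spread between these libraries.

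Cytokines of this family bind a receptor subunit of their own, IL-11 receptor alpha for IL-11 and IL-6 receptor alpha for IL-6, and then recruit the shared signal transducer gp130, the product of *Il6st*. Leukemia inhibitory factor (LIF) and oncostatin M instead signal through gp130 paired with the LIF receptor or the oncostatin M receptor. The receptors activate JAK kinases and STAT3, and STAT3 induces *Socs3*, whose product binds gp130 and JAKs and limits the signal. In PDAC, IL-6 and LIF are known as signals between tumor and stroma, and *Il11* is a known target gene of TGFβ signaling, the pathway in which SMAD4 acts.

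Libraries held 11885461 to 43571007 counts (median 19415320), so that 3 counts correspond to 0.0689 to 0.252 counts-per-million (CPM) of the library total, and each member exceeded this level in every library. *Smad4* itself went against the labels. It ranged from 77.9 to 132 CPM in the 18 libraries labelled off and from 14.4 to 23.2 CPM in the 17 labelled on, and its log2 fold change over all strata was -2.53. For this reason groups are called labelled Smad4 on and labelled Smad4 off throughout, and each fold change between them is labelled on relative to labelled off. Whether the labels are swapped was not tested. If they are, the Dox treatment given above and the *Smad4* direction of each such fold change are reversed. A single liver library, labelled off replicate 2 of day 7, was paired-end and stood apart: its median correlation was 0.944 with the pancreas libraries and 0.833 with the other liver libraries, across 13543 genes. Its summed level of 8 fibroblast markers was 30730 CPM, against 235.5 to 4265 CPM in the other liver libraries labelled off. Several of the values that include it are also given without it. Summed carcinoma markers were at 2462 to 8086 CPM in the pancreas libraries and 6786 to 13490 CPM in the lungs. In the liver they were at 12210 to 16420 CPM, apart from 3205 CPM in the paired-end library.

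*Il11* was the member called between labels over all organs and days. The gene lies at chr7:4772373-4782857 on the minus strand (GRCm38, ENSMUSG00000004371) and has a RefSeq start at each of 2 positions. The 250 bases upstream of the internal start (chr7:4778142-4778391, minus strand, GRCm38.p6, from RefSeq) are shown because *Il11* carried the label difference. This stretch lies in an intron of 2 of the 3 annotated transcripts. The capitals mark matches, on either strand, to the AP-1 motif TGANTCA, 98 bases upstream of the start, and to the SMAD box CAGAC, 221 and 126 bases upstream. The second sequence is upstream of the RefSeq start of *Socs3* (chr11:117969452-117969616, minus strand), a STAT3 target. It holds 165 bases, from position -250 to -86, and ends before the first base that lies in an annotated exon. This stretch lies in an intron of 1 of the 3 annotated transcripts. Its capitals mark the STAT motif TTCNNNGAA, 154 bases upstream of the start and not of the end of the printed sequence.
*Il11*: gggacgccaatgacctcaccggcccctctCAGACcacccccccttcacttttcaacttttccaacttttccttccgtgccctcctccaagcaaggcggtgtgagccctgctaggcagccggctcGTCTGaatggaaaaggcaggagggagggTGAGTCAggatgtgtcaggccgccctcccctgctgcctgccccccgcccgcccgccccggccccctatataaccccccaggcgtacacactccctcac
*Socs3*: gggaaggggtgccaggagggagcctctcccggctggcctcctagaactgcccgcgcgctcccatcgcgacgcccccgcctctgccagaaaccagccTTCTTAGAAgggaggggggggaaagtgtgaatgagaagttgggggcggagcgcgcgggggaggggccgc

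All 9 members had an entry among the RefSeq promoters, with 12 starts in all. In the 250 bases upstream of these starts, TTCNNNGAA occurred at 1 start (*Socs3*), TGANTCA at 3 (*Il11*, *Il6* and *Lif*) and CAGAC at 5, of the genes *Il11*, *Lif*, *Il11ra1* and *Lifr*. Among the 32851 mouse promoter windows of the same length, 7.02% held TTCNNNGAA, 6.75% held TGANTCA and 42.2% held CAGAC. A match describes the letters only.

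Per kilobase of transcript, *Socs3* had the highest level of the members (median 230.5 CPM per kb over the 35 libraries), followed by *Lif* (24.6) and *Il6st* (14.3). The medians of *Il11* (4.39), *Il11ra1* (3.42), *Osmr* (3.10) and *Lifr* (2.30) came next, and *Il6* (1.19) and *Il6ra* (1.11) were lowest. The ranges of neighbours in this order overlapped across libraries, also those of *Socs3* (72.5 to 416 CPM per kb) and *Lif* (9.30 to 86.8 CPM per kb). *Il11* had the widest range by ratio among the members, from 0.249 to 20.0 CPM per kb.

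**Figure D1:**
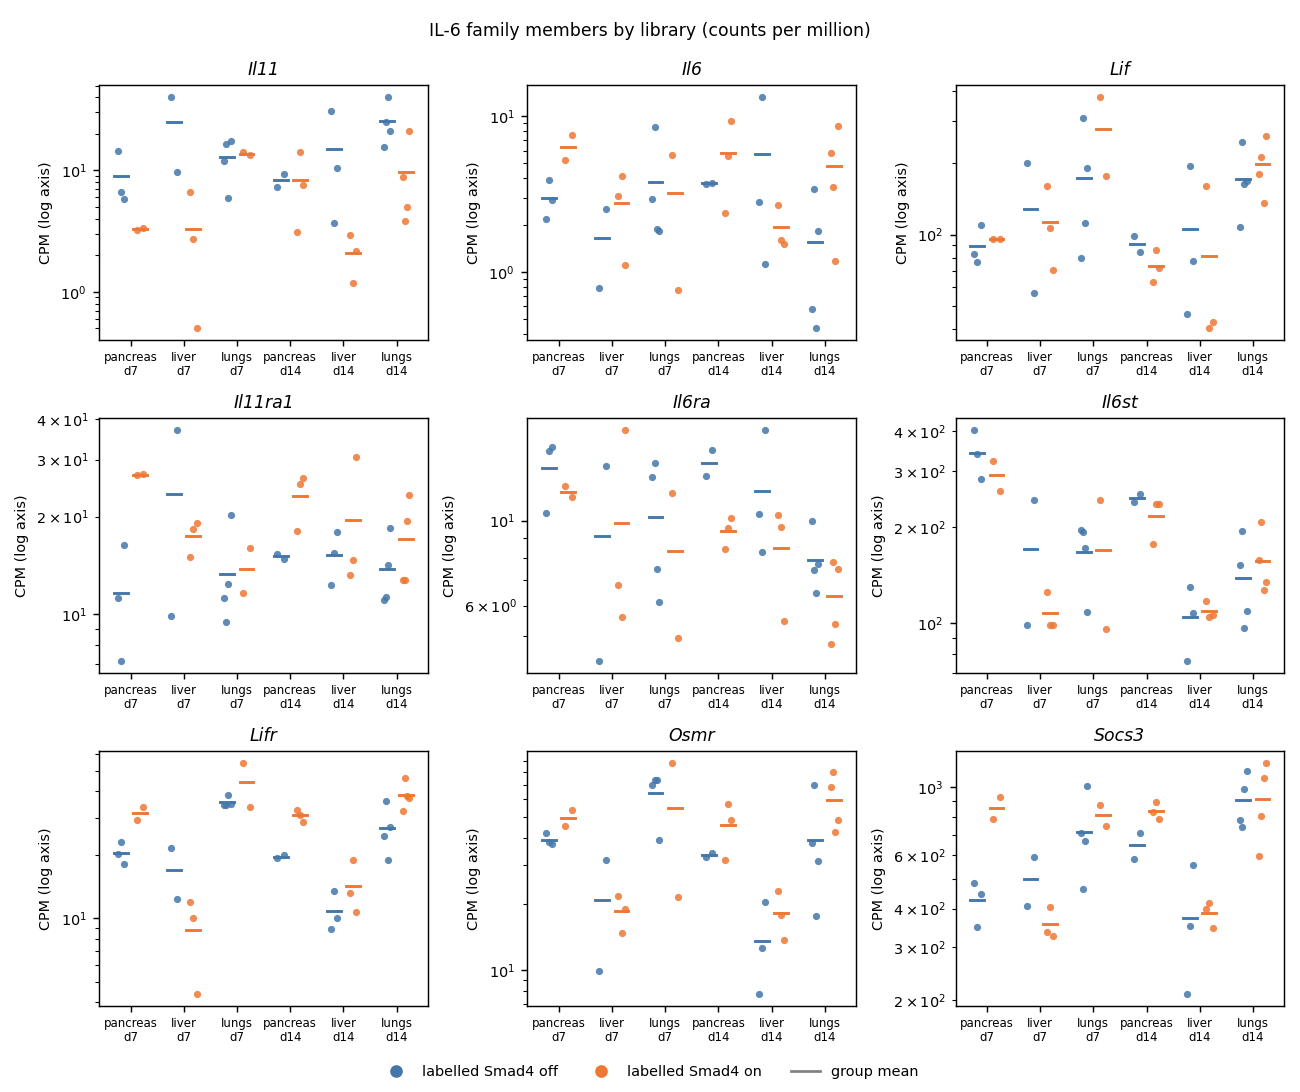
CPM (log axis) of the 9 members in each of the 35 libraries, by organ and day, with labelled Smad4 off in blue and labelled Smad4 on in orange. Points are libraries and bars are group means. The *Il11* values of the liver libraries labelled on sit at 0.501 to 6.63 CPM, and *Lifr* in the liver lies at 4.37 to 21.6 CPM over both labels, against 18.8 to 54.6 CPM in the lungs.

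The first comparison asked whether the ligands differed between labels in each organ and day. IL-11 is a cytokine of fibrogenic and epithelial responses. In the liver at day 7, *Il11* was at 40.1 and 9.66 CPM in the libraries labelled off and at 6.63, 2.70 and 0.501 CPM in those labelled on. In the liver at day 14 it was at 30.6, 3.69 and 10.5 CPM labelled off and at 2.96, 1.18 and 2.16 CPM labelled on. The groups did not overlap at either day, with every library labelled on below every library labelled off. The log2 fold change was -3.04 ± 1.07 (SE) at day 7 (adjusted p = 0.151) and -2.96 ± 0.84 at day 14 (adjusted p = 0.372), so neither passed the edgeR test after adjustment over all genes. Without the paired-end library the day 7 value was -3.68 (adjusted p = 0.109), and without the other library labelled off it was -1.81 (adjusted p = 0.302). Leaving out replicate 1 labelled off, at 30.6 CPM, moved the day 14 value to -1.78 (adjusted p = 0.666). DESeq2 called *Il11* in the liver at both days, with adjusted p = 0.018 at day 7 and 0.00674 at day 14. Markers of other cells moved with the label in the liver: 8 hepatocyte markers summed to 69.1 to 480 CPM labelled off and 653 to 1044 CPM labelled on, and 8 leukocyte markers to 55.1 to 214 CPM and 243 to 564 CPM, with none of either list at 0 in every library of a label. In the same liver libraries 6 lung epithelium markers summed to 8.44 to 119 CPM labelled off and 139 to 385 CPM labelled on. *Sftpa1* of that list was at 0 in all liver libraries labelled off. By contrast 5 endothelium markers summed to 5.65 to 68.7 CPM labelled off and 3.03 to 9.42 CPM labelled on, with overlap. The hepatocyte list also summed to 135 to 452 CPM in the lung libraries labelled off. The part of these markers in the *Il11* difference was not tested.

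In the pancreas at day 7, *Il11* was at 14.6, 6.70 and 5.83 CPM labelled off and at 3.21 and 3.35 CPM labelled on, again with no overlap (log2 fold change -1.47 ± 0.43, adjusted p = 0.119). Without the library at 14.6 CPM the value was -0.97 (adjusted p = 0.101). DESeq2 called this difference as well (adjusted p = 0.0184). The pancreas groups overlapped at day 14, at 7.32 and 9.35 CPM labelled off and 3.09, 14.2 and 7.54 CPM labelled on (log2 fold change -0.12 ± 0.60).

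The lung values are given by day, and a difference between days within the lungs was not tested. At day 7 *Il11* was at 11.99, 16.4, 5.91 and 17.3 CPM labelled off and at 14.1 and 13.3 CPM labelled on, and both libraries labelled on fell within the range of the others (log2 fold change 0.15 ± 0.48). At day 14 it was at 15.5, 25.1, 40.2 and 21.1 CPM labelled off and at 8.83, 3.86, 4.96 and 20.9 CPM labelled on. There 3 of the 4 libraries labelled on were below all those labelled off, and the fold change of -1.46 ± 0.56 did not pass the test (adjusted p = 0.427). Without replicate 4 labelled on it was -2.20 (adjusted p = 0.157). Libraries of the same mouse number deviated together here, with correlations of 0.475 to 0.551. Under both labels replicates 3 and 4 held counts on *mt-Co3* and replicates 1 and 2 held none. A shared mouse number and this split cannot be told apart. *Il11* was lower labelled on in 4 of 4 pairs of the same number, with replicate 4 at 20.9 against 21.1 CPM. It was lower in 3 of 3 pairs of the liver at day 14. Any pairing would give that count there, since the liver groups did not overlap. With the number as a block the lung value was -1.64 ± 0.67 (adjusted p = 0.371).

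With all 35 libraries in a single fit that gave each organ and day its own baseline, *Il11* was lower in the libraries labelled on, by a log2 fold change of -1.47 ± 0.38 (adjusted p = 0.00664). It was the 1 of 9 members called at a fold over 2 and an adjusted p under 0.05, where 4.84% of the 17547 genes tested were called. The call was kept when each of the 35 libraries was left out in turn (-1.63 to -1.28), including the paired-end one (-1.49, adjusted p = 0.00794). Fits by organ, chosen after seeing the data, gave a log2 fold change of -3.01 for the 11 liver libraries (adjusted p = 0.0326). The 14 lung libraries gave -0.79 (adjusted p = 0.674), and the 10 pancreas libraries -0.77 (adjusted p = 0.292). The test of the difference between organs did not pass for *Il11* (edgeR adjusted p = 0.192), and neither did that between days (adjusted p = 1). Counts on *mt-Co3* were present in 10 libraries (4 of the liver and 6 of the lungs) and absent from 25. The *Il11* value was -1.82 within the former (adjusted p = 0.404) and -1.47 within the latter (adjusted p = 0.0192).

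*Il6* and *Lif* were not called between labels. *Il6*, the inflammatory cytokine that names the family, was low, at 0.433 to 13.3 CPM. In the pancreas at day 7 it was at 2.17, 3.91 and 2.89 CPM labelled off and at 5.22 and 7.58 CPM labelled on. These groups did not overlap (log2 fold change 1.06 ± 0.34, adjusted p = 0.131). Elsewhere the *Il6* groups overlapped. In the lungs at day 14 they ran from 0.433 to 3.41 CPM labelled off and from 1.18 to 8.63 CPM labelled on, with a fold change of 1.59 ± 0.75 (adjusted p = 0.533). *Il6* was higher labelled on in 4 of 4 pairs there, and the blocked value was 1.63 ± 0.51 (adjusted p = 0.172). *Lif*, the leukemia inhibitory factor, was the most abundant of the 3 ligands, at 40.5 to 377 CPM. Its groups overlapped in all 6 organ and day comparisons, and over all strata its log2 fold change was 0.00 ± 0.22 (adjusted p = 0.995).

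**Figure D2:**
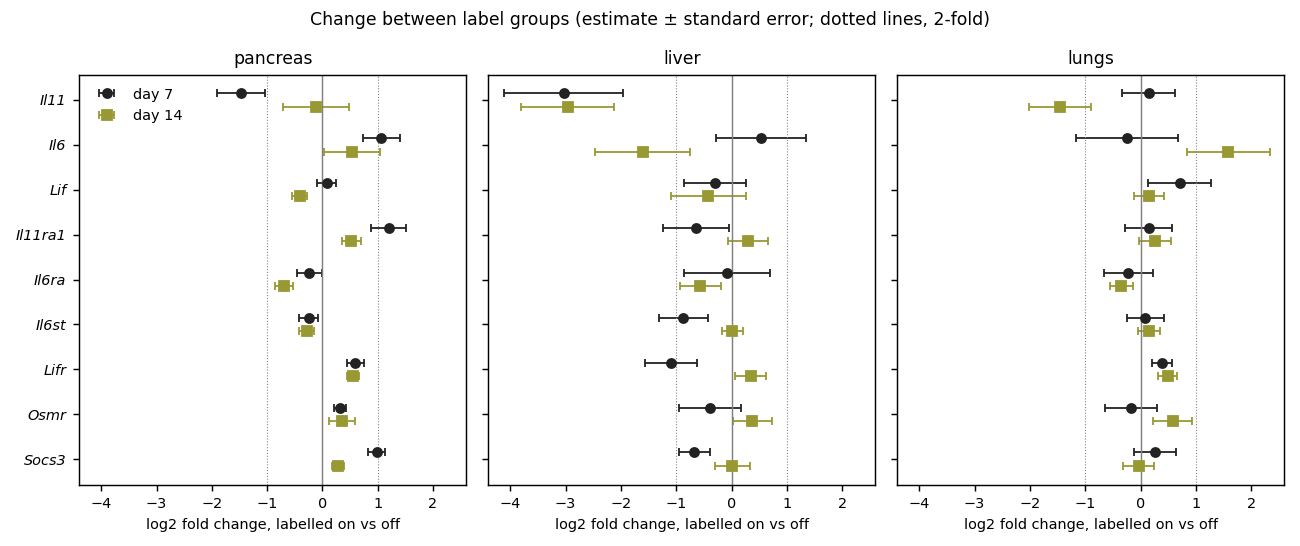
Log2 fold change of each member, labelled on relative to labelled off, in each organ at day 7 (circles) and day 14 (squares), with standard errors as bars and dotted lines at 2-fold. *Il11* has the lowest estimates, near -3 in the liver at both days, and no point was called in a single organ and day.

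Among the receptors, *Lifr* and *Il6ra* passed the adjusted test, both in the pancreas at day 14 and both under 2-fold. *Lifr*, the LIF receptor (chr15:7090614-7197489, ENSMUSG00000054263), was at 19.3 and 19.9 CPM labelled off and at 32.8, 31.0 and 28.8 CPM labelled on (log2 fold change 0.56 ± 0.11, adjusted p = 0.0154). In the same libraries *Il6ra*, the IL-6 binding subunit, was at 13.1 and 15.3 CPM labelled off and at 8.42, 9.56 and 10.2 CPM labelled on (log2 fold change -0.69 ± 0.16, adjusted p = 0.0275). Neither pair of groups overlapped.

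*Lifr* also stood higher in the pancreas at day 7, at 20.3, 23.1 and 18.03 CPM labelled off and 29.4 and 33.6 CPM labelled on (log2 fold change 0.60 ± 0.15, adjusted p = 0.0837). In the liver at day 7 the order was the opposite. There it was at 21.6 and 12.4 CPM labelled off and at 11.97, 10.0 and 4.37 CPM labelled on, a log2 fold change of -1.10 that did not pass the test (-1.36 without the paired-end library, adjusted p = 0.183). In the lungs at day 14 *Lifr* and *Osmr* were higher labelled on in 4 of 4 pairs, as were *Il6*, *Il11ra1* and *Il6st*. The share of all genes with this pattern was not counted. Blocked values were 0.51 ± 0.13 (adjusted p = 0.103) for *Lifr* and 0.68 ± 0.17 (adjusted p = 0.0865) for *Osmr*. The groups of both genes overlapped there. The test of a difference between organs did not pass for *Lifr* (edgeR adjusted p = 0.19).

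*Il11ra1*, the IL-11 binding subunit (chr4:41699989-41769474, ENSMUSG00000073889), was higher in every pancreas library labelled on at day 7. It was at 11.2, 7.15 and 16.4 CPM labelled off and at 27.0 and 27.0 CPM labelled on (log2 fold change 1.20 ± 0.32, adjusted p = 0.103). The same order held at day 14, at 15.3 and 14.8 CPM labelled off and 18.1, 25.2 and 26.3 CPM labelled on (0.52 ± 0.17, adjusted p = 0.0873). In the liver the paired-end library was the highest of the series for *Il11ra1*, at 37.0 CPM. The liver fold change at day 7 was -0.64, and 0.76 without that library. Over all strata it was 0.30 ± 0.18 (adjusted p = 0.265). Without that library it was 0.49 ± 0.15 (adjusted p = 0.0267), under 2-fold. This gene has near-identical copies in the mouse genome, among them *Il11ra2*, which was at 0 in all 35 libraries, so that reads shared with a copy could be missing from its counts.

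*Il6st*, which encodes gp130, and *Osmr*, the oncostatin M receptor, differed little between labels. Over all strata their log2 fold changes were -0.14 ± 0.13 and 0.23 ± 0.18 and neither passed the test. Without the paired-end library they were -0.01 (adjusted p = 0.951) and 0.37 (adjusted p = 0.144). In the liver at day 7 they were -0.87 and -0.39, and 0.06 and 0.84 without that library. *Il6st* at pancreas day 14 did not overlap, at 240 and 254 CPM labelled off and 178, 236 and 235 CPM labelled on. In the pancreas at day 7 *Osmr* was at 42.1, 38.3 and 37.5 CPM labelled off and at 45.3 and 53.7 CPM labelled on (log2 fold change 0.31 ± 0.11, adjusted p = 0.159). Those groups did not overlap either.

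*Socs3*, the feedback inhibitor (chr11:117966079-117970047, ENSMUSG00000053113), was the member with the lowest adjusted p in the pancreas at day 7. It was at 487, 349 and 446 CPM labelled off and at 785 and 928 CPM labelled on, a log2 fold change of 0.98 ± 0.16 (adjusted p = 0.0363) that fell just short of 2-fold. Without replicate 1 labelled off it was 1.06 (adjusted p = 0.0496), and leaving out any other library of that comparison raised the adjusted p to between 0.0558 and 0.144. Markers of other cells moved with the label in these pancreas libraries at day 7, for which *Il11*, *Il6*, *Il11ra1*, *Lifr* and *Osmr* also did not overlap. The 8 fibroblast markers summed to 11420 to 17400 CPM labelled off and 24240 to 24680 CPM labelled on, with 7 of 8 above 0 and *Col3a1* and *Pdgfra* called higher. The 6 acinar markers summed to 1675 to 2644 CPM and 622 to 855 CPM, with 5 of 5 tested below 0, *Prss2* and *Ctrb1* called lower and *Amy2a5* at 0 in both libraries labelled on. Their part in the differences of the members was not tested. At day 14 the *Socs3* groups in the pancreas remained apart, at 582 and 708 CPM labelled off and 830, 897 and 787 CPM labelled on (log2 fold change 0.28 ± 0.11, adjusted p = 0.141).

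In the liver at day 7 the *Socs3* order was the reverse, at 409 and 592 CPM labelled off and 336, 406 and 324 CPM labelled on (log2 fold change -0.68, and -0.27 without the paired-end library, at 592 CPM). In the lungs the groups overlapped at both days. The difference between organs was not called for *Socs3* (edgeR adjusted p = 0.282).

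Counted together, 0 of 9 members were called in the pancreas at day 7 (1.33% of all genes tested were called), the liver at day 7 (0.444%), the lungs at day 7 (0%), the pancreas at day 14 (4.64%), the liver at day 14 (0%) and the lungs at day 14 (0.0271%). At an unadjusted p under 0.05 the members numbered 6, 1, 0, 5, 1 and 2 in the same order, and DESeq2 called 2, 1, 0, 0, 1 and 0. In the lungs at day 14, where same-numbered libraries deviated together, the fit with the mouse number as a block called 109 genes in place of 4, and still 0 members. Of comparisons with no edgeR call, the lungs at day 7 had 793 genes at an unadjusted p under 0.05 and the liver at day 14 had 1447, and DESeq2 called 100 and 332. Groups of members did not overlap for 6 of 9 in the pancreas at day 7, where 43.1% of all genes did not overlap. The numbers were 3 of 9 in the liver at day 7 (all genes, 44.3%), 0 in the lungs at day 7 (10.6%), 5 in the pancreas at day 14 (49.1%), 1 in the liver at day 14 (15%) and 0 in the lungs at day 14 (4.98%). Tests of whether the label difference varied by organ or by day called 0 members each, beside 1.1% of all genes by organ and 0% by day, where 531 genes were at an unadjusted p under 0.05 and DESeq2 called 1. At an unadjusted p under 0.05 these tests gave 2 members by organ (*Il11* and *Lifr*) and 0 by day.

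The second set of comparisons asked how the members differed between tumor sites within a label, with the day in the model. In the libraries labelled on, *Lifr*, *Osmr* and *Socs3* were called lower in the liver than in the pancreas and the lungs, and *Il6st* lower than in the pancreas. *Lifr* ran from 4.37 through a median of 11.4 to 19.0 CPM in the liver (n = 6), and from 32.3 through 37.6 to 54.6 CPM in the lungs (n = 6). In the pancreas it was at 29.4, 33.6, 32.8, 31.0 and 28.8 CPM. The liver range lay below both others, with a log2 fold change of -1.76 ± 0.22 against the lungs (adjusted p = 0.000145) and -1.39 ± 0.23 against the pancreas (adjusted p = 0.000144).

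*Osmr* in the libraries labelled on ran from 13.7 through 18.4 to 23.0 CPM in the liver and from 21.4 through 58.2 to 87.9 CPM in the lungs, and was at 31.6 to 57.1 CPM in the pancreas. The liver range overlapped that of the lungs through the lowest lung library alone. Its log2 fold change was -1.59 ± 0.25 for liver against lungs (adjusted p = 0.000677) and -1.31 ± 0.26 for liver against pancreas (adjusted p = 0.000731).

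*Socs3* followed the same order in the libraries labelled on, from 324 through 373 to 416 CPM in the liver, from 594 through 840 to 1202 CPM in the lungs and from 785 to 928 CPM in the pancreas. The liver libraries were below all the others. The difference was -1.20 ± 0.15 on the log2 scale against the lungs (adjusted p = 0.000159) and -1.13 ± 0.16 against the pancreas (adjusted p = 3.47e-05).

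*Il6st* showed another order, with the pancreas highest. In the libraries labelled on it was at 323, 260, 178, 236 and 235 CPM in the pancreas and ran from 98.8 through 105 to 125 CPM in the liver and from 96.0 through 146 to 243 CPM in the lungs. The liver and pancreas ranges did not overlap (log2 fold change of liver against pancreas -1.14 ± 0.17, adjusted p = 7.72e-05). Against the pancreas the lungs differed by -0.61 ± 0.17 (adjusted p = 0.0164), under 2-fold.

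*Lif* and *Il11* were called lower in the liver than in the lungs in the libraries labelled on. *Lif* ran from 40.5 through 88.9 to 160 CPM in the liver libraries labelled on and from 136 through 196 to 377 CPM in the lungs, with an overlap between 136 and 160 CPM. The log2 fold change of liver against lungs was -1.23 ± 0.30 (adjusted p = 0.00997), and that of lungs against pancreas was 1.45 ± 0.32 (adjusted p = 0.00385). *Il11* ran from 0.501 through 2.43 to 6.63 CPM in the liver and from 3.86 through 11.1 to 20.9 CPM in the lungs (log2 fold change -2.03 ± 0.59, adjusted p = 0.0247). Without replicate 4 of the lungs at day 14 or replicate 2 of the lungs at day 7 the adjusted p of *Il11* was 0.0585 and 0.0567.

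In all, 4 of 9 members were called between liver and pancreas in the libraries labelled on (22.2% of all genes), 1 of 9 between lungs and pancreas (13.6%) and 5 of 9 between liver and lungs (10.3%). The median log2 fold change of the 9 members was -1.14 for liver against pancreas and -1.20 for liver against lungs, where the medians of all genes were 0.0409 and 0.0142.

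**Figure D3:**
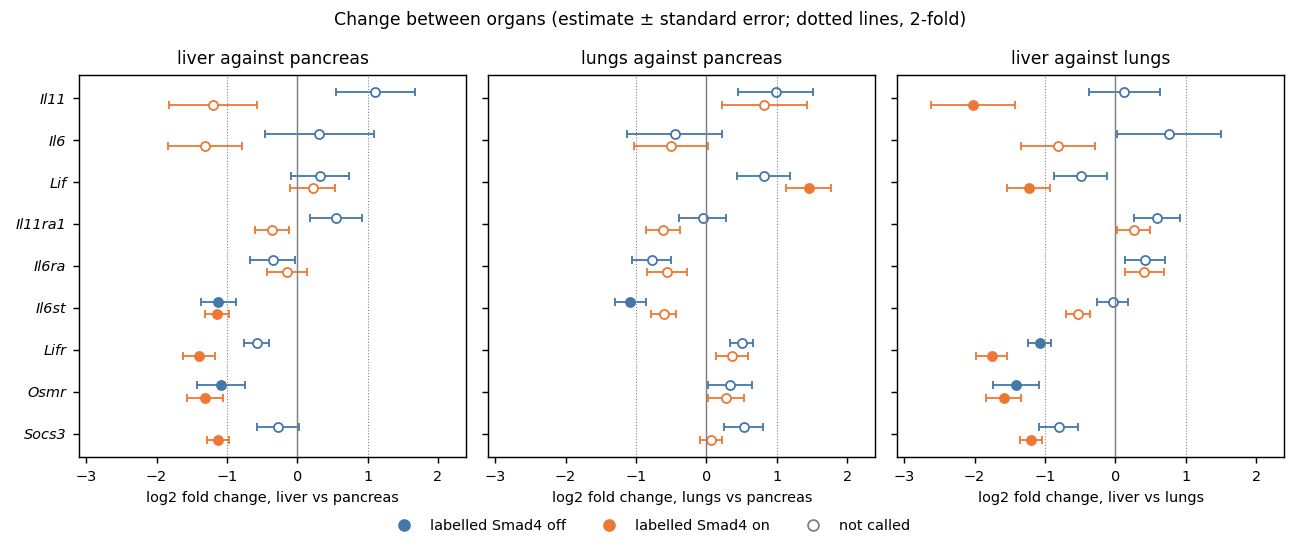
Log2 fold change of each member between organs, for libraries labelled off (blue) and labelled on (orange), with standard errors as bars; filled points were called and dotted lines mark 2-fold. *Il6st*, *Lifr* and *Osmr* were below 0 in the liver against the pancreas under both labels.

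The libraries labelled off gave other values. *Il11* liver against lungs was at 0.12 ± 0.50 on the log2 scale (adjusted p = 0.925) and liver against pancreas at 1.11 ± 0.56 (adjusted p = 0.188), and *Lif* liver against lungs at -0.49 ± 0.38 (adjusted p = 0.493). The median over the 9 members was -0.275 for liver against pancreas and -0.0412 for liver against lungs, where the medians of all genes were 0.0171 and 0.0331. Without the paired-end library the middle values of the 9 were -0.505 (*Lifr*) and -0.351 (*Lif*).

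In the liver libraries labelled off, *Il6st* was at 98.7, 243, 75.9, 130 and 107 CPM, where 243 CPM was the paired-end library, and in the pancreas at 403, 339, 284, 240 and 254 CPM. In the lungs it ran from 96.9 through 162 to 196 CPM. Against the pancreas *Il6st* was lower in the liver (log2 fold change -1.12 ± 0.25, adjusted p = 0.00978). The lung value against the pancreas was also called (-1.08 ± 0.22, adjusted p = 0.00138). Without the paired-end library the liver value was -1.47 (adjusted p = 0.000111). Liver and lungs were close (-0.04 ± 0.22, and -0.42 without the paired-end library, adjusted p = 0.189). The value against the pancreas fell under 2-fold without replicate 1 of the liver at day 7 (-0.94) or at day 14 (-0.98), and the lung value did so without replicate 4 at day 7 (-0.94) or replicate 3 at day 14 (-0.99).

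*Osmr* in the libraries labelled off was at 9.89, 31.8, 7.75, 12.5 and 20.4 CPM in the liver, the second value being the paired-end library, and ran from 17.6 through 54.5 to 73.8 CPM in the lungs. The ranges overlapped. The log2 fold change of liver against lungs was -1.41 ± 0.32 (adjusted p = 0.0163), and -1.81 without the paired-end library (adjusted p = 0.00553). For liver against pancreas it was -1.08 ± 0.34 (adjusted p = 0.0436), a call that was lost when any 1 of 14 of the 18 libraries was left out, and that became -1.42 (adjusted p = 0.00677) without the paired-end library.

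*Lifr* was at 21.6, 12.4, 8.94, 13.5 and 10.0 CPM in the liver libraries labelled off and ran from 18.8 through 34.5 to 38.4 CPM in the lungs (log2 fold change -1.07 ± 0.17, adjusted p = 0.0015). Its adjusted p was 0.00261 without the paired-end library. *Socs3* in the liver against the lungs was at -0.80 (adjusted p = 0.101) and, without the paired-end library, at -1.10 (adjusted p = 0.0172). Against the pancreas it was at -0.28 ± 0.30 (adjusted p = 0.561). In these libraries 2 of 9 members were called for liver against pancreas (8.68% of all genes), 1 of 9 for lungs against pancreas (18.4%) and 2 of 9 for liver against lungs (3.95%). Without the paired-end library 3 of 9 were called for liver against lungs, with *Socs3* added, beside 735 of 17572 genes tested.

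*Il6ra*, *Il11ra1* and *Il6* were not called between organs under either label. *Il6ra* in the libraries labelled off was at 10.4, 15.2, 15.6, 13.1 and 15.3 CPM in the pancreas and ran from 6.12 through 7.58 to 14.2 CPM in the lungs. These ranges overlapped, and the log2 fold change of lungs against pancreas was -0.77 ± 0.28 (adjusted p = 0.0387), under 2-fold, and -0.72 without the paired-end library (adjusted p = 0.0521). *Il11ra1* in the libraries labelled on was at 18.1 to 27.0 CPM in the pancreas and 11.6 to 23.3 CPM in the lungs (-0.62 ± 0.25, adjusted p = 0.0733). *Il6* in the libraries labelled on was at 2.39 to 9.34 CPM in the pancreas and 1.11 to 4.15 CPM in the liver (-1.31 ± 0.53, adjusted p = 0.0586), and leaving out a library brought it past the test in 5 of 17 cases.

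Markers of other cells moved with the organ. The summed level of 8 fibroblast markers was 9148 to 24680 CPM in the 10 pancreas libraries, 152.8 to 2239 CPM in the lungs and 235.5 to 4265 CPM in the liver without the paired-end library, and none of the 8 was at 0 in every library of a group. Acinar markers summed to 622 to 2690 CPM in the pancreas and to 2.98 to 16.8 CPM in the other organs, apart from 266 CPM in the paired-end liver library. *Amy2a5*, an acinar amylase gene, was at 0 in all lung libraries. Carcinoma markers also moved with the organ, at 2462 to 8086 CPM in the pancreas and 12210 to 16420 CPM in the liver without the paired-end library. The part of these levels in the organ differences of the members was not tested. In bulk libraries, fewer cells of a type and less RNA per cell cannot be told apart. For the label comparison over all strata, the fibroblast list had 0 of 8 markers called (2 above and 6 below 0), the acinar list 2 of 5 tested lower, and the leukocyte list 0 of 8, with all 8 above 0. Without the paired-end library the fibroblast markers were 6 above and 2 below 0, and 1 acinar marker was called lower.

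**Figure D4:**
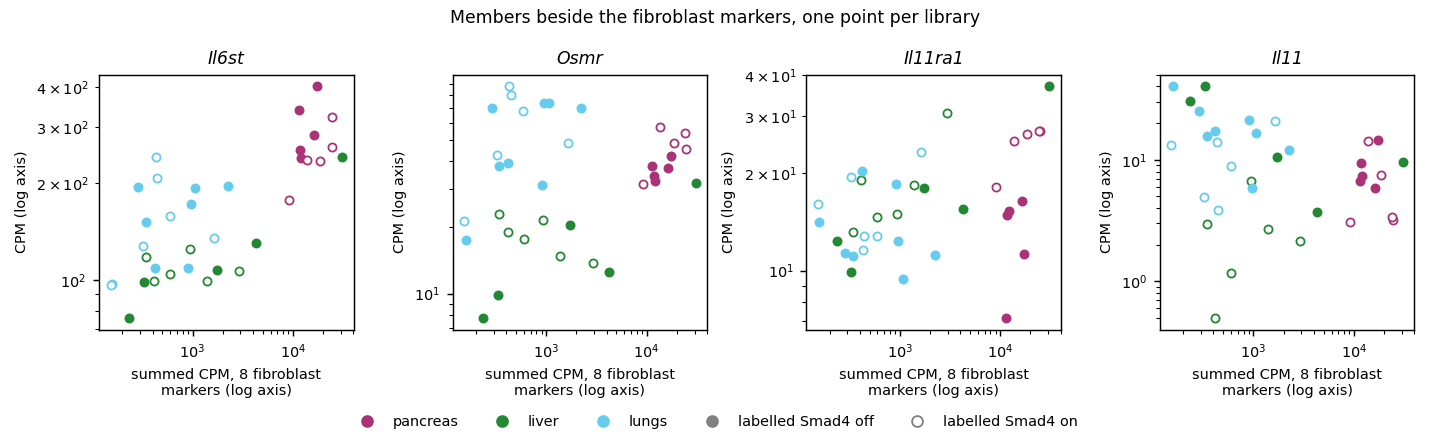
CPM of *Il6st*, *Osmr*, *Il11ra1* and *Il11* (log axis) beside the summed CPM of 8 fibroblast markers (log axis), with 1 point per library, organs in color and filled points for labelled off. The pancreas libraries lie at 9148 to 24680 CPM of markers and hold the highest *Il6st* values, and the liver point at 30730 CPM is the paired-end library.

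Over the 35 libraries the members paired in different ways, described here without a test since the libraries share organs, days and depth. *Lifr* and *Osmr* had a Pearson r of 0.732 on log2 CPM, and *Lifr* and *Socs3* 0.70, but after subtracting each group's mean these were 0.155 and -0.0164. By contrast *Il6st* and *Osmr* had r = 0.625 across libraries and 0.886 within groups. *Il11* and its receptor *Il11ra1* had r = -0.266. Of 17547 genes, those closest to *Il11* were *Odaph* (r = 0.856), *Plxnd1* (0.802) and *Pcolce2* (0.793). *Il6st* was closest to *Sesn3* (0.955), *Tram2* (0.952) and *Msrb3* (0.944). *Osmr* correlated closely with *Nfasc* (0.869) and *Stat3* (0.853), the latter encoding the transcription factor of the pathway. *Lifr* was closest to *St6gal1* (0.919), *Socs3* to *Camk2n1* (0.812), *Lif* to *Pdgfb* (0.849), *Il6* to *Map3k8* (0.777), *Il6ra* to *Spred2* (0.845) and *Il11ra1* to *Polr3gl* (0.81).

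The other genes of the pathway came from lists fixed by name. Of 4 further receptors 1 was tested and 0 were called: *Il27ra* had a log2 fold change of 0.46 ± 0.31, and *Cntfr* was under the filter.

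The signal transducers showed little difference. Of 11 JAK, STAT and adaptor genes 0 were called over all strata or in any organ and day, with log2 fold changes of -0.108 to 0.605 over all strata, and the kinase gene *Jak1* ran from 173 to 312 CPM. Of 10 other inhibitors 0 were called (-0.347 to 0.617), among them *Ptpn1* at 0.08 and *Socs5*, which was lower by less than 2-fold (-0.35 ± 0.11, adjusted p = 0.0245). The sheddase genes *Adam10* and *Adam17*, whose products release soluble IL-6 receptor, were at -0.167 and -0.0293.

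Genes that answer to STAT3 in many cells did not move one way. Of 14 such genes, 1 was called higher and 1 lower over all strata, with a median log2 fold change of -0.0844, where the median of all genes was 0.0145. *Icam1*, an adhesion molecule gene also induced by NF-κB, was higher (1.09 ± 0.21, adjusted p = 0.000482), and *Timp1*, which encodes an inhibitor of metalloproteinases, was lower (-1.08 ± 0.29, adjusted p = 0.00817). The label difference of *Timp1* varied by organ (edgeR adjusted p = 0.0125). At day 7 and day 14 it was -3.46 and -2.23 in the liver. The pancreas values were -0.78 and -0.89, and those of the lungs 0.53 and -0.38. *Icam1* was called in the pancreas at day 14 as well (1.63 ± 0.15, adjusted p = 0.00121). Without the paired-end library, 0 of the 14 were called over all strata, with fold changes between -0.997 and 0.985 on the log2 scale.

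Acute-phase genes are induced by IL-6 in the liver. Over all strata 5 of 12 tested (14 listed) were called higher and 0 lower, 11 were above 0, and the median log2 fold change was 0.985, beside 4.84% of all genes called. *Lcn2*, which encodes an iron-scavenging lipocalin, had the lowest adjusted p (1.65 ± 0.29, adjusted p = 0.00026), with 13.5 to 71.5 CPM in the liver libraries labelled off and 87.6 to 821 CPM in those labelled on. *Reg3b*, an antimicrobial lectin gene, had a log2 fold change of 1.06 ± 0.32 (adjusted p = 0.0192). The remaining 3 were *Fgb* (1.99), *Reg3g* (1.32) and the complement gene *C3* (1.19), named after their values were seen. *Fgb* was near the floor, at a mean of 0.532 CPM and with 0 counts in 12 of 35 libraries.

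In the pancreas at day 14, 3 of 9 acute-phase genes tested were called higher, beside 4.64% of all genes called in either direction. *Cp*, the ceruloplasmin gene, was at 253 to 295 CPM labelled off and 648 to 718 CPM labelled on (log2 fold change 1.20 ± 0.10, adjusted p = 0.00092), and *Saa3* was at 2.21 to 2.33 CPM and 7.05 to 10.6 CPM (1.81 ± 0.25, adjusted p = 0.0041). *Reg3b* was the third (1.02 ± 0.12, adjusted p = 0.00196). In the same libraries 8 leukocyte markers summed to 147 to 231 CPM labelled off and 269 to 293 CPM labelled on (0 of 8 called), 6 carcinoma markers to 4134 to 4428 CPM and 5795 to 8086 CPM (0 of 6 called), and the hepatocyte marker *Ttr* was called higher (2.38), with *Cyp2e1* and *Cps1* at 0. In the other organs and days 0 acute-phase genes were called. Without the paired-end library 5 of 14 tested were called higher over all strata, with a median of 0.893. The hepatocyte markers given above moved with the label in the liver libraries. The part of these markers in the acute-phase differences was not tested.

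**Figure D5:**
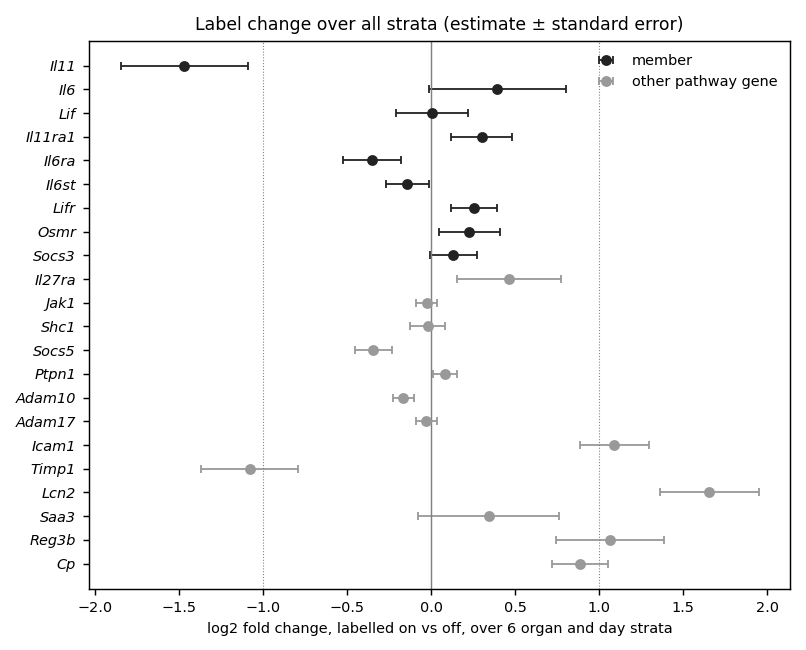
Log2 fold change over all strata, labelled on relative to labelled off, for the 9 members (black) and genes named from the other pathway lists (grey), with standard errors as bars and dotted lines at 2-fold. *Il11* and *Timp1* lie below -1, and *Icam1*, *Lcn2* and *Reg3b* above 1.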

How the data were processed

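RNA was sequenced from 35 libraries of sorted mKate2+ cells with a stranded poly(A) kit. The deposited values are raw counts per gene, which the authors made by trimming with Trimmomatic (0.36), alignment with STAR (2.5.3a) to mm10 and counting with featureCounts (1.6.3) on the GRCm38 annotation, after read checks with FastQC (0.11.5). The strand setting of the counting is not given in the sources used here. Library totals were 11885461 to 43571007 counts, and 3 counts were taken as the floor, which covers counting error only.

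Groups came from the labels. Labels were compared within each organ and day with edgeR (4.0.16) quasi-likelihood tests in R (4.3.3), with TMM normalization and filterByExpr (minimum count 10, minimum total 15), over all genes passing the filter. All 9 members passed in every comparison. A second fit held all 35 libraries, with a baseline for each organ and day, and further fits tested whether the label difference varied by organ or day and compared organs within a label. A gene was called at a fold over 2 and a Benjamini-Hochberg adjusted p under 0.05, and by the adjusted p alone in the tests by organ or day. Printed CPM are counts over the library total. DESeq2 (1.42.0), other normalization and filters, a covariate for *mt-Co3*, a replicate block and leaving out each library were alternatives. Fits by organ, by *mt-Co3* and of lists without the paired-end library were added after seeing the data. The pipeline was run on simulated counts for the pancreas at day 14 and for the fit over all strata. The simulated libraries had no organ or day differences. Their spread was smaller than the data showed over all strata, so the check does not cover that spread.

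The members and gene lists were chosen with earlier results of these data known. The named genes were the members, the called genes of each other pathway list (up to 4 by adjusted p, otherwise the 2 most abundant) and up to 3 genes correlating best with each member. Some results under this rule are not reported here. Whether mouse numbers pair libraries was checked by correlating the deviations of same-numbered libraries from their group means. The correlations were 0.475 to 0.551 in the lungs at day 14, and 0.125, 0.121 and 0.549 in the liver at day 14. In both comparisons the mouse number went with the presence of *mt-Co3* counts. Numbers 3 and 4 of the lungs and number 3 of the liver held them under both labels. A shared mouse number and this split cannot be told apart. No other comparison had 3 or more pairs, so the check could not decide whether the numbers pair libraries elsewhere. In the pancreas the values were -0.166 to 0.0425, and in the liver and lungs at day 7 -0.307 to 0.338. Pairs by number are given for the liver and lungs at day 14 as a description.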

Additional observations from a re-analysis of the deposited data

Results flagged for a closer look

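Among 30 sets of 4 libraries (levels of the members and *Smad4* in the groups of that size), 3 held a library far from the others. Chance alone flags about 1 in 20 of independent sets, but these sets share libraries. All 3 flagged sets were of the same libraries, the lungs at day 7 labelled off: *Il6* at 8.60 CPM, above the others, *Lifr* at 38.4 CPM, above the others, and *Osmr* at 39.1 CPM, below the others. In the last of these the remaining 3 libraries were at 69.9 to 73.8 CPM.

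For 2 members the groups lay apart in one direction in the liver at day 7 and in the opposite direction in the pancreas. Groups that did not overlap were common over all genes, at 44.3% in the liver at day 7. In the pancreas the shares were 43.1% at day 7 and 49.1% at day 14. The share of all genes with opposite directions was not counted. *Lifr* had a log2 fold change of -1.10 in the liver at day 7, against 0.60 in the pancreas at day 7 and 0.56 at day 14. *Socs3* had -0.68 in the liver at day 7, against 0.98 and 0.28 in the pancreas. Without the paired-end library the liver values were -1.36 and -0.27. These pairs were not tested one by one. The edgeR test over all 3 organs gave adjusted p = 0.19 for *Lifr* and 0.282 for *Socs3*.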

How the results depend on the processing

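With 2 to 4 libraries a group, single organ and day comparisons depended on the tool. The number of members called (0 in each) became 2 in the pancreas and 1 in the liver at day 7 and 1 in the liver at day 14 with DESeq2, which over all genes called 517, 2842 and 332 in place of 192, 71 and 0. DESeq2 also called 100 genes in place of 0 in the lungs at day 7, 197 in place of 4 in the lungs at day 14, 966 in place of 193 by organ, 1 in place of 0 by day, and 1026 in place of 656 for liver against lungs labelled off. In the pancreas at day 7 it was 3 with no filter and 1 with no fold threshold, and at day 14 it was 2 with no fold threshold. In the liver at day 7 it was 1 with the *mt-Co3* covariate and 2 in a single fit of all 12 groups. Over all strata 1 member became 0 in the lungs alone, the pancreas alone or the libraries with *mt-Co3* counts alone. For liver against pancreas labelled off, 2 became 1 with DESeq2 size factors, the stricter filter, the covariate or no filter. For lungs against pancreas, 1 became 3 labelled off and 2 labelled on with no fold threshold, and 2 labelled on with the covariate.

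Leaving out 1 library gave 0 to 1 members in the pancreas at day 7 (1 without replicate 1 labelled off), 0 to 2 in the liver at day 7 (2 without replicate 1 labelled off), 0 to 2 for liver against pancreas labelled off and 0 to 1 for lungs against pancreas labelled off. *Il11* ranged from -0.11 to 0.41 in the lungs at day 7, below 0 without replicate 3 labelled off, and from -0.77 to 0.27 in the pancreas at day 14, above 0 without replicate 2 labelled off (0.06) or replicate 1 labelled on. Of the other fold changes under an alternative, 735 kept direction and side of the threshold, 28 lost the call and 18 gained it. The cause of these changes was not tested.

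With the mouse number as a replicate block the number of members called stayed 0 in every organ and day and 1 over all strata, where *Il11* was at -1.53 (adjusted p = 0.00689). In the pancreas same-numbered libraries had correlations of -0.166 to 0.0425. The adjusted p under the block was 0.267 there for *Socs3* at day 7, and 0.0533 for *Lifr* and 0.0649 for *Il6ra* at day 14. The *mt-Co3* covariate could not be fitted in the pancreas, where no library had such counts.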
